A study of Homo sapiens with 6 samples.

Results

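The miR-106b-25 cluster is a run of 3 microRNA (miR) hairpins, miR-106b, miR-93 and miR-25, inside the gene MCM7. Its 6 mature arms, hsa-miR-106b-5p, hsa-miR-106b-3p, hsa-miR-93-5p, hsa-miR-93-3p, hsa-miR-25-5p and hsa-miR-25-3p (the prefix marks human miRs and is mostly left out from here on), were taken by name from the 2588 miR names of the count table, and all 6 were found there. After RPL24 knock-down (KD) 1 of the 6 arms was differentially expressed (DE), against 5.00% of the 360 miRs tested. MiR-25-5p, the minor arm of its hairpin, rose 1.55-fold, while its partner miR-25-3p and the arms of the other hairpins were not DE. The call of miR-25-5p held in 16 of 17 alternative fits and was lost without RPL24 KD replicate 1.

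Small RNA was sequenced from HEK293T cells, a human embryonic kidney line. The RPL24 KD group had 3 libraries from cells transfected with 50 nM of siPOOLs, mixtures of many siRNAs, against RPL24, and the negative control (NC) group had 3 libraries from cells that received non-targeting siPOOLs. Harvest was 72 h after transfection in both groups. The labels add that cells were given miR-608 plasmids 48 h after the siPOOLs, but the study describes the sequencing as an experiment of its own. No library held a read of miR-608 (0 counts in all 6), which allows a level of up to 7.52 CPM, counting error alone considered. RPL24 is a protein of the large ribosomal subunit, and the study asked whether its loss alters the levels of mature miRs. Nothing in the labels says that the libraries came from separate cultures, so the p-values measure the spread between these libraries, which may be technical.

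A miR gene is transcribed into a primary transcript, from which Drosha and its partner DGCR8 cut a hairpin. Dicer then removes the loop and leaves a duplex of 2 arms, named 5p and 3p by their side of the hairpin. One arm, the guide, is usually retained by an Argonaute protein, while the other, the passenger, is mostly lost. MCM7 encodes a subunit of the helicase that opens DNA for replication, and its promoter is driven by E2F factors in dividing cells. The cluster is a paralog of the oncogenic miR-17-92 cluster. MiR-106b-5p and miR-93-5p are known to repress the cell cycle inhibitor CDKN1A, and miR-25-3p the pro-apoptotic BCL2L11.

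The mature sequences of all 6 arms are shown because they decide which arms share targets and which reads could be mistaken for those of a relative. They come from RefSeq on GRCh38.p14, 5′ to 3′, and the capitals mark the seed (bases 2 to 8), which pairs with target mRNAs.
miR-106b-5p: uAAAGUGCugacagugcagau
miR-93-5p: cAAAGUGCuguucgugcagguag
miR-25-3p: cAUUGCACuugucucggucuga
miR-106b-3p: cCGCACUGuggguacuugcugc
miR-93-3p: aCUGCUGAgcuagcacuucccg
miR-25-5p: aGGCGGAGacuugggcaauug

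MiR-106b-5p and miR-93-5p share the seed AAAGUGC with each other and with miR-17-5p, miR-20a-5p, miR-20b-5p, miR-106a-5p, miR-519d-3p and miR-526b-3p. MiR-25-3p shares the seed AUUGCAC with miR-32-5p, miR-92a-3p, miR-92b-3p, miR-363-3p and miR-367-3p. The seeds of miR-106b-3p, miR-93-3p and miR-25-5p were held by 0 other miRs among the 2281 listed names that had a mature sequence. The nearest listed sequence differed from miR-93-5p by 3 edits, from miR-25-3p by 4 and from miR-106b-5p by 5. For miR-93-3p the distance was 7 edits, and for miR-25-5p and miR-106b-3p it was 8. The treatment of reads that match more than 1 miR is not given in the sources used here. Whether reads of relatives entered the count of any arm was not tested.

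The hairpins of miR-106b and miR-25 are printed to show where the arms lie (capitals). The DE arm, miR-25-5p, starts at base 14 of its hairpin, and the abundant miR-25-3p at base 52.
MIR106B: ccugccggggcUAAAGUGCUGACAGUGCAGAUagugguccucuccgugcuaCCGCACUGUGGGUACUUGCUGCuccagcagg
MIR25: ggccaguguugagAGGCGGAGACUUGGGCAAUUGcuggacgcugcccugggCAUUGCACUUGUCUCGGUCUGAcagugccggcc

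Both hairpins are on chromosome 7 (GRCh38.p14, minus strand), MIR106B at chr7:100093993-100094074 and MIR25 at chr7:100093560-100093643. The arms of miR-93 lie between them, miR-93-5p at chr7:100093815-100093837 and miR-93-3p at chr7:100093777-100093798. From the start of miR-106b-5p to the end of miR-25-3p the cluster spans 493 nt. The loops between the arms are 19 nt long in miR-106b, 16 nt in miR-93 and 17 nt in miR-25. In GENCODE 29 the 3 hairpins are intronic in 8 of the 13 transcripts of MCM7 and exonic in 0, and the other 5 transcripts do not reach them. In 7 of the 8 transcripts they share the intron chr7:100093402-100094172, which is number 12 in 4 transcripts and number 13 in 1.

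The libraries held from 398721 to 611745 counts. The NC libraries differed more among themselves (chi-square per degree of freedom from 12.0 to 21.5 between pairs) than the RPL24 KD libraries (from 2.50 to 2.84). The depletion of RPL24 could not be checked in these libraries, since mRNA was not sequenced. In HEK293T cells given RPL24 siPOOLs the study reports lower RPL24 mRNA by RT-qPCR, along with a western blot. It describes the sequencing as a separate KD experiment. Of 8 miRs that mark liver, muscle, neurons or blood cells, 7 had reads and the myeloid miR-223-3p was at 0 in every library. The 8 summed to between 245 and 271 CPM in RPL24 KD and between 347 and 396 CPM in NC, mostly from the muscle miR-1-3p, and their part in the results was not tested. In such bulk libraries fewer cells of a kind and less RNA per cell cannot be told apart.

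Levels are given as CPM, counts scaled to a common library size, after TMM normalization, which sets that size by the bulk of the miRs. Each read covers a mature miR of 21 to 23 nt, so levels were not divided by length. Summed over its 6 arms, the cluster made up between 3.41% and 3.98% of a library. It was 3.65% ± 0.0717 (SD, n = 3) in RPL24 KD and 3.65% ± 0.297 (SD, n = 3) in NC. Within the cluster miR-25-3p took from 63.0% to 66.6% of the counts and miR-93-5p from 19.1% to 24.3%. MiR-106b-3p took from 9.37% to 11.3% and miR-106b-5p from 2.06% to 2.40%. The passengers miR-25-5p and miR-93-3p took from 0.655% to 1.05% and from 0.136% to 0.259%. By mean CPM among the 1205 miRs with a read, miR-25-3p was number 9, miR-93-5p 27, miR-106b-3p 42, miR-106b-5p 90, miR-25-5p 134 and miR-93-3p 238. The ranges of the 6 arms in CPM did not touch each other, so the order of the levels was the same in every library.

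To ask which arms responded to RPL24 KD, the counts of all miRs were fitted together with the quasi-likelihood test of edgeR. All 6 arms were among the 360 miRs that passed the filter on low counts. Over these 360 miRs 5.00% were DE in either direction (adjusted p under 0.05, Benjamini-Hochberg), 3.33% higher and 1.67% lower. The cluster held 1 DE miR of 6, higher in RPL24 KD. The groups did not overlap in this 1 arm of the 6, against 27.5% of the tested miRs. The median log2 fold change of the 6 arms was 0.017, and that of all tested miRs was -0.0084.

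The level of hsa-miR-25-5p was 400.5, 354 and 371 CPM in the RPL24 KD libraries (replicates 1 and 2 and the library whose number no label has, called unnumbered) and 231, 232 and 260 CPM in the NC libraries in the same order. Every RPL24 KD library thus lay above every NC library. These levels rest on 148 to 219 counts in RPL24 KD and 93 to 137 counts in NC. The means were 375 ± 23.4 CPM (SD, n = 3) and 241 ± 16.2 CPM (SD, n = 3), a log2 fold change of 0.64 (SE 0.112, adjusted p = 0.00704, edgeR). As a fold this is 1.55, with a 95% interval from 1.32 to 1.84.

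MiR-25-5p remained DE in 16 of the 17 alternative fits, with adjusted p-values from 0.000115 to 0.0651. The exception was the fit without RPL24 KD replicate 1, where its log2 fold change was 0.58 (adjusted p = 0.0651, edgeR). None of the 360 miRs passed in that fit (0 DE by edgeR), although the unadjusted p of 56 was under 0.05.

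The guide arm of the same hairpin, hsa-miR-25-3p, had 24708, 23973 and 23586 CPM in RPL24 KD and 22796, 22623 and 24401 CPM in NC. The unnumbered NC library lay within the range of the RPL24 KD libraries, so the groups overlapped. The log2 fold change was 0.050 (SE 0.0523, adjusted p = 0.636, edgeR), and the 95% interval of the fold ran from 0.958 to 1.12. A change of this abundant arm by as much as that of miR-25-5p thus lies outside its interval.

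The main arm of the middle hairpin, hsa-miR-93-5p, had 8463, 7973 and 8279 CPM in RPL24 KD and 7892, 6477 and 9437 CPM in NC. The NC libraries spread on both sides of the RPL24 KD libraries, with NC replicate 2 lowest and the unnumbered NC library highest. Its log2 fold change was 0.052 (SE 0.101, adjusted p = 0.789, edgeR). The log2 fold change depended on single NC libraries. It changed sign to -0.073 without NC replicate 2 and was 0.18 without the unnumbered NC library. With a block for the replicate number, a fit limited to the 4 libraries with numbers, it was 0.18 and DE (adjusted p = 0.00805, edgeR), and in the same 4 libraries without the block it was 0.17 (adjusted p = 0.172, edgeR). The adjusted p of miR-93-5p ranged from 0.00805 to 0.994 over all alternatives.

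Its partner hsa-miR-93-3p was the rarest arm, with 20 to 53 counts in a library. It had 78.6, 84.9 and 50.1 CPM in RPL24 KD and 85.7, 65.0 and 100.5 CPM in NC, and the groups overlapped. The log2 fold change was -0.21 (SE 0.220, adjusted p = 0.628, edgeR). It ranged from -0.36 without RPL24 KD replicate 2 to -0.063 without the unnumbered RPL24 KD library. At this depth its fold had a 95% interval from 0.621 to 1.20, so a rise like that of miR-25-5p lies outside it, whereas a fall of similar size lies within it and was not detectable.

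In the first hairpin hsa-miR-106b-5p had 812, 769 and 779 CPM in RPL24 KD and 728, 745 and 929 CPM in NC. The unnumbered NC library was again the highest, and the other NC libraries were the lowest of the 6. The log2 fold change was -0.027 (SE 0.102, adjusted p = 0.900, edgeR), with a fold between 0.843 and 1.14 at 95%.

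The opposite arm hsa-miR-106b-3p had 3624, 3572 and 3657 CPM in RPL24 KD and 3509, 3830 and 3632 CPM in NC. The RPL24 KD libraries lay within the range of the NC libraries. Its log2 fold change was -0.015 (SE 0.0651, adjusted p = 0.919, edgeR), with a fold between 0.899 and 1.09 at 95%.

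**Figure D1:**
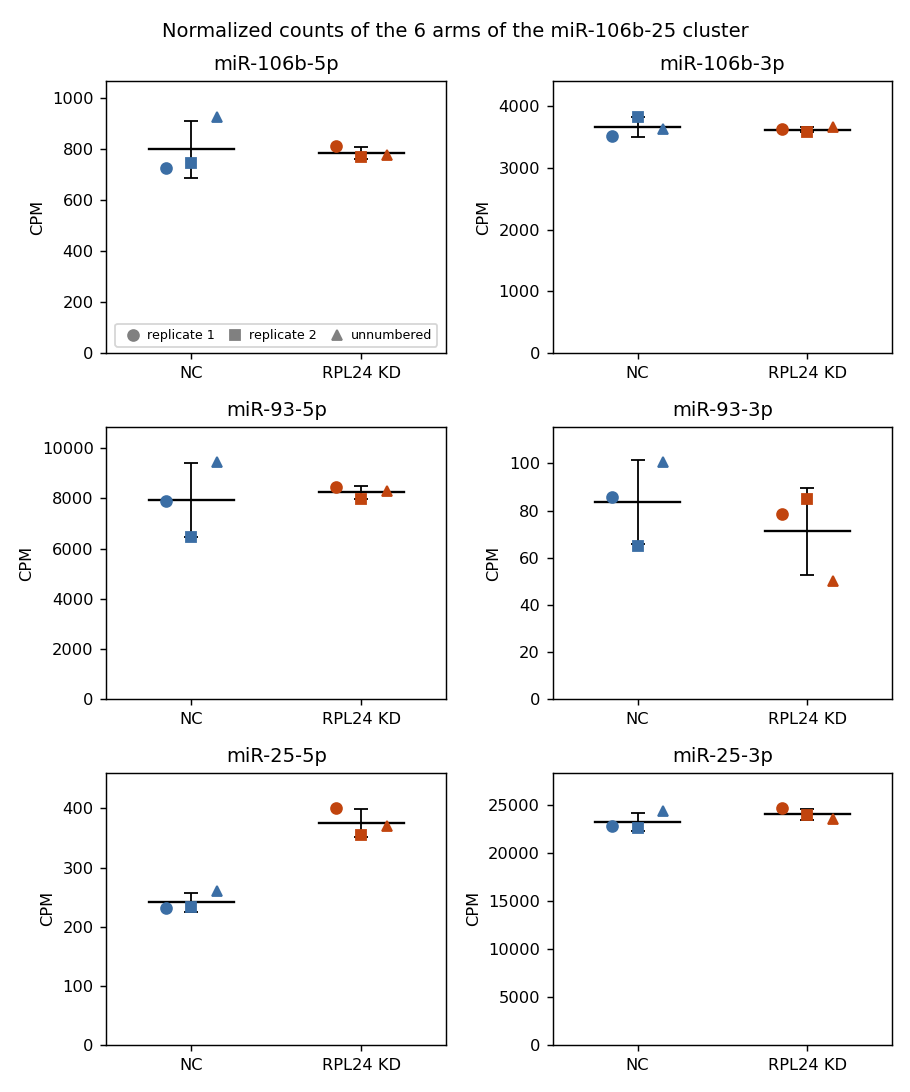
Normalized counts (CPM, linear axes from 0) of each arm by library, with the mean and SD of the 3 NC and 3 RPL24 KD libraries; circles, squares and triangles mark replicate 1, replicate 2 and the unnumbered library. MiR-25-5p has its 3 RPL24 KD libraries (354 to 400.5 CPM) above the 3 NC libraries (231 to 260 CPM), and the groups overlap in the other 5 arms.

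Both arms of each hairpin of the cluster come from the same precursor, and their ratio within a library does not depend on the scaling of the library. Whether the amount of precursor had a part in the ratios was not tested. Of the 3 hairpins of the cluster miR-106b had the most even arms, and its 3p arm was the more abundant in all 6 libraries. MiR-106b-5p made up 18.3%, 17.7% and 17.6% of the counts of the hairpin in RPL24 KD and 17.2%, 16.3% and 20.4% in NC. The RPL24 KD shares lay within the range of the NC shares, and the log2 ratio of the arms differed by -0.0022 between the groups (SE 0.128, adjusted p = 0.991, limma). In miR-93 the 5p arm took from 98.9% to 99.4% of the counts, and the log2 ratio differed by 0.31 (SE 0.218, adjusted p = 0.694, limma). This difference was 0.080 without the unnumbered RPL24 KD library, 0.48 without RPL24 KD replicate 2 and 0.072 with the replicate block, and it was not called in any of these fits.

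In miR-25 the 3p arm dominated. The 5p arm made up 1.59%, 1.46% and 1.55% of the counts of the hairpin in RPL24 KD and 1.003%, 1.02% and 1.05% in NC. The shares did not overlap between the groups, and the means were 1.53% ± 0.0702 (SD, n = 3) and 1.02% ± 0.0260 (SD, n = 3). The log2 ratio of miR-25-5p to miR-25-3p was higher by 0.59 in RPL24 KD (SE 0.0785, adjusted p = 0.00308, limma over the 71 hairpins with both arms tested). Of these 71 hairpins 1.41% were called, which is miR-25 alone, and 9.86% had ratios that did not overlap between the groups. Some of the 71 share an arm with another hairpin, such as miR-181a-5p or miR-30c-5p, so their ratios mix precursors. An exact permutation test of the miR-25 ratio gave a two-sided p of 0.1, the smallest that 3 libraries against 3 allow.

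The difference in the miR-25 ratio stayed between 0.56 and 0.62 in all 11 alternatives, whose adjusted p-values ran from 1.48e-10 to 0.211. It was not called without the trend of the variance with abundance (adjusted p = 0.122, limma) or with the replicate block over the 4 numbered libraries (adjusted p = 0.211, limma). The lowest of these p-values came from the 15 hairpins with a mean of at least 100 counts in both arms. In that fit 2 of the 15 were called, so miR-25 was not the only one.

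**Figure D2:**
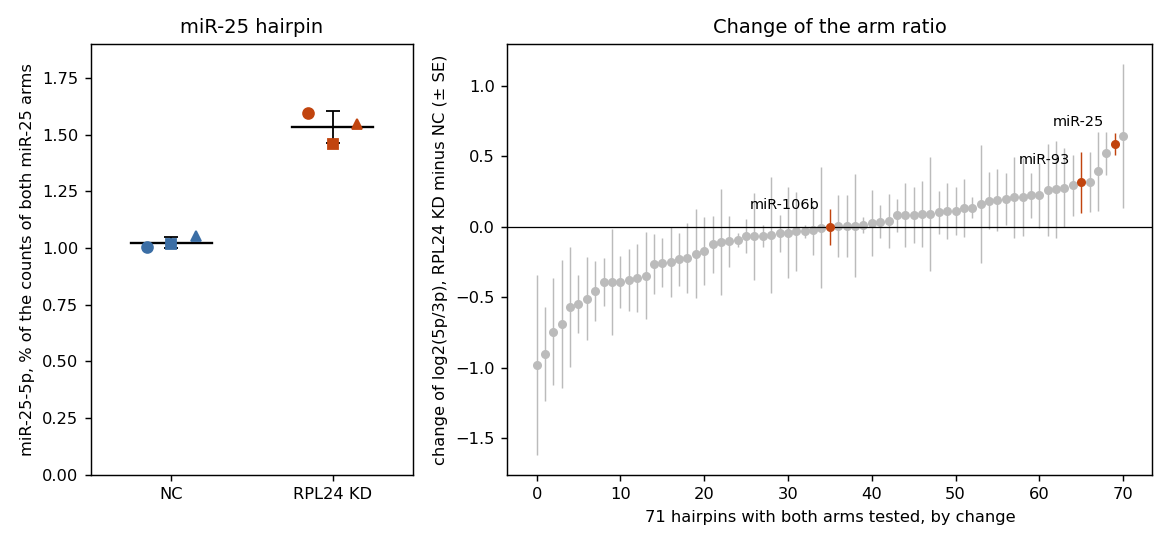
Left, miR-25-5p as a percentage of the counts of both miR-25 arms in each library, with mean and SD (n = 3); right, the change of the log2 ratio of 5p to 3p arm (RPL24 KD minus NC, ± SE) for 71 hairpins in order of that change, with the hairpins of the cluster coloured. The share of miR-25-5p is 1.46% to 1.59% in RPL24 KD against 1.003% to 1.05% in NC, while miR-106b lies close to 0 and miR-93 at 0.31 with an SE of 0.218.

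Arms that share a seed bind overlapping sets of targets, so the place of the cluster within its seed families was compared. In the AAAGUGC family miR-20a-5p and miR-17-5p of the miR-17-92 cluster were the main members, with 51.7% ± 0.907 and 33.2% ± 0.426 of the family's counts in NC (SD, n = 3). MiR-93-5p followed with 13.0% ± 0.852 and miR-106b-5p with 1.32% ± 0.0850. MiR-519d-3p and miR-526b-3p had 0 counts.

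MiR-106b-5p and miR-93-5p together took 15.3%, 15.1% and 15.3% of this family in RPL24 KD and 15.3%, 13.7% and 14.0% in NC. The shares overlapped between the groups, and the exact two-sided permutation p was 0.3 (0.3 adjusted over the 2 shares tested). In the AUUGCAC family miR-92a-3p led with 80.5% ± 0.914 of the counts in NC. MiR-25-3p took 16.9%, 16.1% and 16.8% in RPL24 KD and 16.4%, 17.7% and 18.1% in NC. These shares overlapped as well (exact permutation p = 0.3, 0.3 adjusted), and the test had the same limit.

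**Figure D3:**
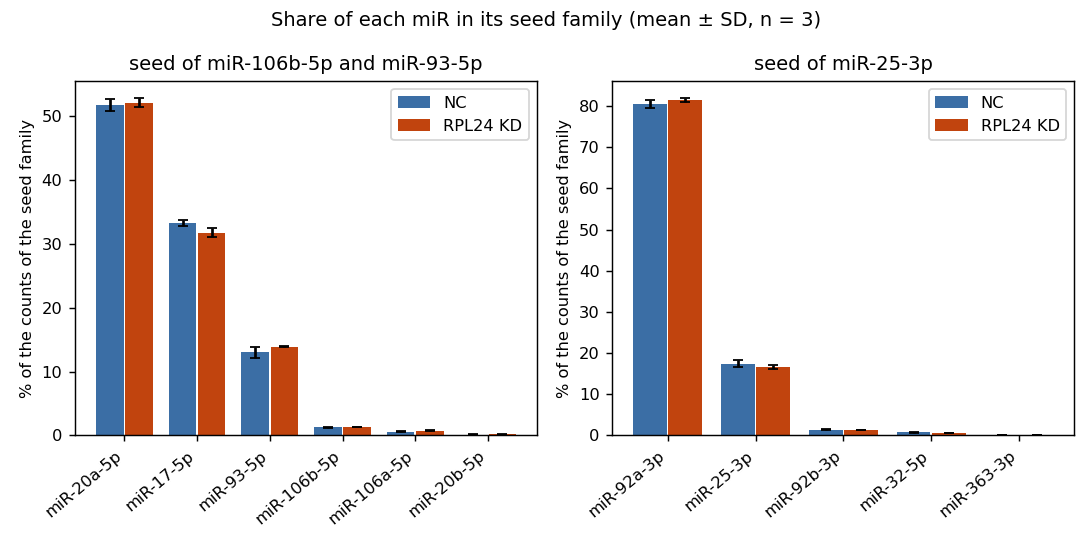
Share of each miR in the counts of its seed family (bars: mean, error bars: SD, n = 3), in NC and RPL24 KD; miRs with 0 counts are left out. MiR-93-5p (13.0% in NC) and miR-106b-5p (1.32%) follow miR-20a-5p and miR-17-5p in their family, and miR-25-3p, at 17.4% in NC and 16.6% in RPL24 KD, is second to miR-92a-3p.

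The same test gave the changes in the paralogous clusters. Of the 12 arms listed for miR-17-92, 10 were tested and 2 were DE, against 5.00% of all tested miRs. Both were higher in RPL24 KD, against 3.33% of all tested miRs, and the median log2 fold change over the 10 was -0.0038. Of the 10 arms listed for miR-106a-363, 2 were tested and 0 were DE by edgeR, with 0 at an unadjusted p under 0.05. MiR-92a-1-5p is the minor arm opposite miR-92a-3p, which has the seed of miR-25-3p, and like miR-25-5p lies on the 5p side. It had 219, 261 and 225 CPM in RPL24 KD and 117, 155 and 180 CPM in NC, so the groups did not overlap. Its log2 fold change was 0.66 (SE 0.158, adjusted p = 0.0289, edgeR).

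MiR-19a-3p, whose seed no arm of the miR-106b-25 cluster has, was the other DE arm, with a log2 fold change of 0.26 (SE 0.0707, adjusted p = 0.0486, edgeR). The tested guides of the paralogous clusters that share a seed with the miR-106b-25 cluster were not DE by edgeR. Their log2 fold changes were -0.10 for miR-17-5p (adjusted p = 0.551), -0.031 for miR-20a-5p (adjusted p = 0.900), 0.25 for miR-106a-5p (adjusted p = 0.265), 0.11 for miR-20b-5p (adjusted p = 0.789) and 0.14 for miR-92a-3p (adjusted p = 0.111).

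**Figure D4:**
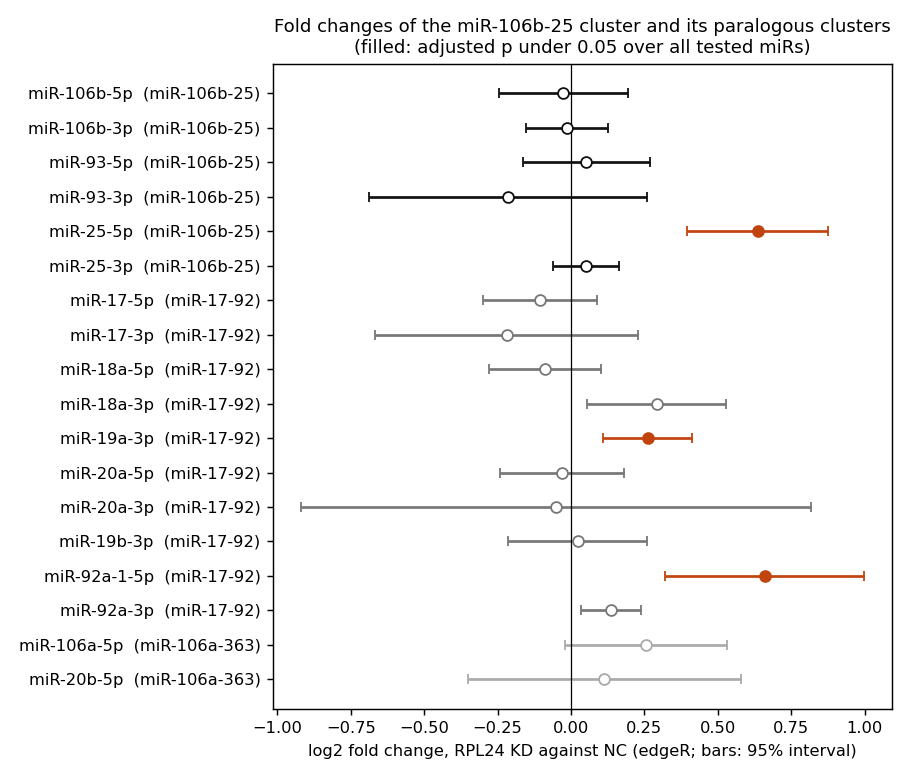
Log2 fold changes (RPL24 KD over NC, edgeR) with their 95% intervals for the 6 arms of the miR-106b-25 cluster and the tested arms of its paralogous clusters; filled points are DE. MiR-25-5p (0.64) and miR-92a-1-5p (0.66) lie far to the right, and the intervals of the other 5 arms of the miR-106b-25 cluster include 0.

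Among 161 other miRs that averaged 100 counts or more, the 2 most like each arm across the 6 libraries were sought by the Pearson correlation of log2 CPM, a description that groups and libraries share. For miR-25-5p they were miR-196b-5p (r = 0.98) and miR-641 (r = 0.98), both of which were themselves DE and higher in RPL24 KD (log2 fold changes of 0.37 and 0.42). The pattern of miR-106b-5p was closest to that of miR-20a-5p (r = 0.98) and miR-708-5p (r = 0.92). MiR-93-5p was closest to miR-19b-3p (r = 0.99) and miR-374b-5p (r = 0.95). For miR-106b-3p these were miR-1246 (r = 0.93) and miR-95-3p (r = 0.93), and for miR-25-3p miR-16-5p (r = 0.96) and miR-361-5p (r = 0.90). The levels of miR-1246 varied widely within NC (mean 2320 CPM, SD 3505, n = 3). Its log2 fold change was -2.19, and it was not DE (adjusted p = 0.145, edgeR). Within the cluster the correlation between both arms of a hairpin was 0.69 in miR-25, 0.43 in miR-93 and 0.0021 in miR-106b. Between hairpins it ranged from -0.58 for miR-106b-3p and miR-93-5p to 0.78 for miR-93-5p and miR-25-3p.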

How the data were processed

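Read quality was checked by the authors with FastQC. Adapters and poor reads were removed with Flexbar, and miRExpress assigned the rest to miRBase entries. The values deposited by the authors are raw counts of each mature miR, not normalized, and their own comparison used DESeq2. Groups came from the labels where a count column matches a label. In each group 2 count columns match a label, while the number of the other column occurs in no label. That column was placed in its group by the letters KD or NC in its own name, and it entered unnumbered.

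All miRs were tested with the quasi-likelihood test of edgeR 4.0.16 (legacy = FALSE, which is not the default of this version, TMM, filterByExpr with a minimum count of 10) in R 4.3.3, with Benjamini-Hochberg adjustment. Standard errors are those implied by the F statistic. Arm ratios were tested with limma 3.58.1 on log2 ratios of CPM + 1, with a variance trend, and seed family shares with exact permutation tests. DESeq2 1.42.0 and limma-voom were alternatives. Sequences came from RefSeq, which matched 2281 of the 2588 names, and MCM7 transcripts from GENCODE 29.

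The members, the paralogous clusters and the marker miRs were chosen with earlier results of these data known. The text names all 6 members, of the paralogs those that were DE or tested and sharing a seed with a member, and the 2 miRs most like each member with at least 100 counts.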

Additional observations from a re-analysis of the deposited data

How the results depend on the processing

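The number of DE members, 1, was 2 with the replicate block (miR-25-5p and miR-93-5p) and from 0 to 1 on leaving out single libraries. The number of hairpins of the cluster with a changed arm ratio, 1, was 0 without the variance trend and 0 with the replicate block. The replicate number marks no shared culture in the labels. The deviations of same-numbered libraries had a correlation of -0.022 over 360 miRs and of -0.21 over the 166 with a mean of at least 100 counts. Over all tested miRs the 18 DE miRs (12 higher, 6 lower) became 57 with the block, 34 with robust edgeR, 31 with no filter and 28 (10 higher, 18 lower) with total counts, and from 0 to 36 without one library. The 27 with a mean of at least 100 counts were 10 higher and 17 lower, and the 4 numbered libraries without the block, added after seeing the data, gave 27 as well.

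Log2 fold changes near 0 changed sign. That of miR-106b-5p, -0.027, was 0.092 with the block, 0.089 in the 4 numbered libraries without it, and from -0.10 to 0.084 without one library. That of miR-106b-3p, -0.015, was 0.0034 with DESeq2 under default filtering and from -0.047 to 0.019 without one library. MiR-93-5p ranged from -0.073 to 0.18 without one library. MiR-93-3p, -0.21, was 0.084 with the block, 0.072 in the 4 numbered libraries and from -0.36 to -0.063 without one library. The arm ratio of miR-93, 0.31, ranged from 0.080 to 0.48 without one library and was 0.072 with the block. The arm ratio of miR-106b, -0.0022, was 0.13 with the block and ranged between -0.083 and 0.11 with a library left out. In each case the cause was not tested. Of the 101 refitted fold changes of members, 91 stayed on their side of the threshold with the same sign, 8 changed sign, 1 lost and 1 gained a call. Both seed family shares kept their direction in every alternative. Leaving out NC replicate 1 moved the difference of miR-106b-5p and miR-93-5p from 0.88 to 1.34 percentage points. It moved that of miR-25-3p from -0.83 to -1.33 percentage points. For both shares the exact permutation p was then 0.1, the smallest that 2 libraries against 3 allow. Depth limits miR-93-3p most.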

Other observations

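Arms of the other hairpins with the seed of miR-25-3p were compared after their values were seen. In miR-92a-1 the log2 ratio of the 5p to the 3p arm was higher by 0.52 in RPL24 KD (SE 0.154, adjusted p = 0.306, limma over 71 hairpins), with no overlap between the groups. In miR-92b the same ratio was lower by 0.90 on the log2 scale in RPL24 KD (a difference of -0.90, SE 0.331, adjusted p = 0.489, limma), and the groups overlapped. By itself miR-92b-5p differed by -0.88 on the log2 scale and was not DE (adjusted p = 0.0729, edgeR). In miR-32, where the 5p arm carries the seed, the difference was -0.45 (SE 0.213, adjusted p = 0.642, limma). On the means the minor arm had thus the larger part in RPL24 KD in miR-25, miR-92a-1 and miR-32 and the smaller part in miR-92b, but of these differences that of miR-25 alone was called. MiR-92a-3p is also made from a further locus, so its ratio to miR-92a-1-5p is not that of 1 hairpin.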
